A study of Mus musculus with 38 samples.

Results

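The 11 libraries with the most Fos RNA were compared with the 11 libraries with the least, among mouse RNA-seq libraries of the adBNST. The adBNST is the anterodorsal division of the bed nucleus that lies along the stria terminalis, a cluster of mostly inhibitory neurons that links the amygdala with hypothalamic and brainstem centres and bears on sustained anxiety and on the hormonal stress response. Levels were CPM, a gene's count scaled by the total count of its library. Of the 38 libraries of the series, 5 were left out because the myelin transcript Mbp stood above 7300 CPM in them (8705 to 11613 CPM). The libraries of both sides were chosen by their measured Fos CPM, on which the other 33 were ranked whatever their study group. The top 11 are called Fos-high and the bottom 11 Fos-low, so that 22 of 38 libraries stand on either side, and 16 stand on neither, 11 in the middle of the ranking and the 5 rich in Mbp.

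The libraries came from wild-type mice of both sexes, either kept as controls or put through 6 weeks of chronic variable mild stress with randomised stressors. There were 9 libraries of stressed females, 10 of control females, 9 of stressed males and 10 of control males, each from a microdissection of the adBNST and from poly-A RNA. Age and strain are not given in the labels used here, which number the libraries without saying that each came from its own animal, so the tests below measure the spread between libraries, which may be technical. The number in a library's title is used below as its name, as in female stressed library 6.

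Fos encodes a transcription factor that pairs with Jun proteins to form AP-1. Its gene is silent or low in resting neurons and is switched on within minutes of calcium entry, cyclic AMP or growth factor signalling, before any new protein is made. It shares this behaviour with other immediate early genes, among them Fosb, Junb, Egr1, Npas4, Nr4a1 and Arc. Calcium and cyclic AMP act on several of these genes through CREB, a protein bound at a cyclic AMP response element (CRE), and MAP kinases act through serum response factor at a CArG box. Their RNAs are short-lived, and some of their products, such as the MAP kinase phosphatase Dusp1, feed back on the same signals. Slower genes such as Bdnf and Vgf follow later.

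The windows just before the start of transcription of 5 of these genes are shown because Fos chose the libraries and because the other 4 had higher levels in the Fos-high libraries. The sequences are RefSeq's for GRCm38.p6, read 5′ to 3′ on the gene's own strand, 250 bases ending at the base before the start, which is position -1. Capitals mark the CRE core TGACG, or CGTCA where it lies on the other strand. The Fos window is chr12:85473640-85473889 on the + strand and holds the core from -129 and from -66. Fosb is at chr7:19310046-19310295 on the - strand, with the core from -60. Nr4a1, a nuclear receptor gene, is at chr15:101266596-101266845 on the + strand, with cores from -233, -213, -69 and -40. Dusp1 is at chr17:26508473-26508722 on the - strand, with cores from -191, -143 and -140, the last 2 of which overlap in the full element TGACGTCA. Npas4, a factor of neurons that is switched on by calcium, is at chr19:4989972-4990221 on the - strand, with cores from -179 and -169.
Fos: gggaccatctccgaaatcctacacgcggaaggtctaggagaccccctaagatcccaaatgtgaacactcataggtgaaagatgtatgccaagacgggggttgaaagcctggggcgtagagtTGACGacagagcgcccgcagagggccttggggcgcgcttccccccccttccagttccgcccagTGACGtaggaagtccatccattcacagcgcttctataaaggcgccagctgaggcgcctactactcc
Fosb: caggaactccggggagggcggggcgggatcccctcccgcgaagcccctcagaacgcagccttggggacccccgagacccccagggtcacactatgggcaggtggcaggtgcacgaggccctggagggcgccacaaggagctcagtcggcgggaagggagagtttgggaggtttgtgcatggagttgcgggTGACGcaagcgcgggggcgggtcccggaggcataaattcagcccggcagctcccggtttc
Nr4a1: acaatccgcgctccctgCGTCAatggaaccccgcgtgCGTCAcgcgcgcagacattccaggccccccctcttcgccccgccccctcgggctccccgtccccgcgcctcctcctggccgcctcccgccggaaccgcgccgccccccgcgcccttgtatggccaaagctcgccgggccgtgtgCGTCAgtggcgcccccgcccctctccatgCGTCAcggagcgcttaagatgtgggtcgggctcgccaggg
Dusp1: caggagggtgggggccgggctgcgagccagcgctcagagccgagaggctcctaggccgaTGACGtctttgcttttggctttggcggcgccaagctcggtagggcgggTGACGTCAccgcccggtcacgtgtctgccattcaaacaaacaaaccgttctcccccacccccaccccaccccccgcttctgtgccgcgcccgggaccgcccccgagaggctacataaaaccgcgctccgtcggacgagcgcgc
Npas4: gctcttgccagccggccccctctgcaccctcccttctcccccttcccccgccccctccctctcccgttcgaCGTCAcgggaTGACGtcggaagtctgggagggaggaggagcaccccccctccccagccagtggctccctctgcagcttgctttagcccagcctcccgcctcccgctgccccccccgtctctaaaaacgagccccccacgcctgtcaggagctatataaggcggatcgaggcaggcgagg

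Fos chose the sides, so its values are a description. Fos ran from 17.9 to 58.8 CPM in the Fos-high libraries (median 26.0) and from 4.49 to 12.04 CPM in the Fos-low libraries (median 7.06), on 339 to 2078 counts against 141 to 335. The Fos-high library just inside the limit had 17.9 CPM and the library just outside it 17.7 CPM. At the other end 12.4 CPM stood just outside and 12.04 CPM just inside, so that the ranking has no gap at either limit. Female stressed library 6 stood apart at 58.8 CPM, and the next was female control library 3 at 34.9 CPM. The fitted log2 difference between the sides was 1.98 ± 0.20 (SE, n = 11 and 11), and 1.70 without female stressed library 6.

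**Figure D1:**
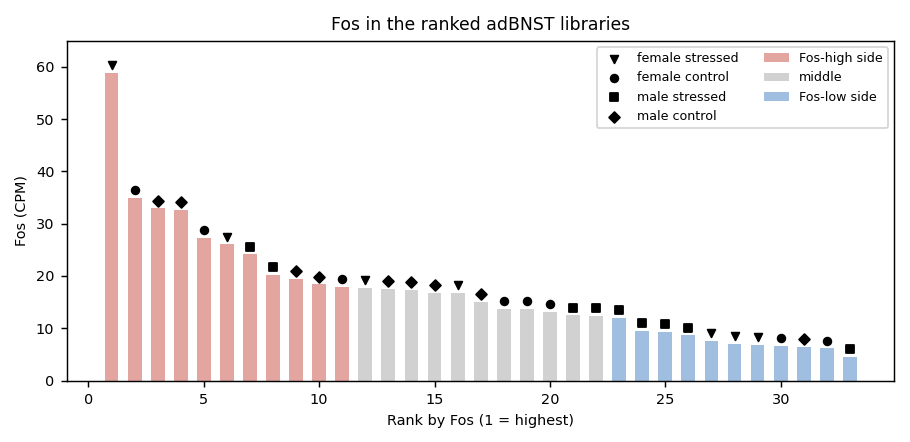
Fos in CPM (vertical axis) in the 33 ranked libraries, from rank 1, the highest (horizontal axis); bars are coloured by side and the symbol above each bar gives the study group. Levels fall without a step from 34.9 CPM at rank 2 to 4.49 CPM at the end, and female stressed library 6 stands apart at 58.8 CPM.

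Total counts ran from 18.1 to 40.1 M on the Fos-high side and from 20.1 to 36.7 M on the Fos-low side. Genes with a count numbered 17679 to 18640 in Fos-high libraries and 18233 to 18827 in Fos-low libraries. Gad1 and Gad2, which make GABA, the transmitter of most adBNST neurons, were abundant in every library of both sides (565 to 732 against 637 to 802 CPM for Gad1, 788 to 1130 against 952 to 1286 CPM for Gad2), while Slc17a7, a glutamate transporter gene abundant in cortex, ran from 2.01 to 5.70 CPM against 2.37 to 15.8 CPM. Male stressed library 5, on the Fos-high side, held choroid plexus RNA, with 2869 CPM of Ttr against at most 41.7 CPM in the other 21. Libraries numbered up to 5 and libraries numbered 6 and above are known from earlier results of these data to differ in many genes, and both sides hold both sets, 6 and 5 libraries on the Fos-high side and 5 and 6 on the Fos-low side. The ribosomal RNA precursor Rn45s took a median of 1.71% of counts in Fos-high libraries numbered 6 and above, against 0.821% in the Fos-low libraries of that set, and 0.212% against 0.161% in those numbered up to 5. Differences below come from a fit with the study group and the number set as terms, and values within each set are given beside many of them. The fits within a set had the side as their only term. Stress and sex are thus not separated from the side in the set values, which are not the same measure as the main difference.

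All study groups were found on both sides. The Fos-high side held 2 stressed females, 3 control females, 2 stressed males and 4 control males, and the Fos-low side held 3 stressed females, 2 control females, 5 stressed males and 1 control male. Stressed mice thus gave 4 of 11 Fos-high libraries and 8 of 11 Fos-low libraries (two-sided Fisher's exact test, p = 0.198, adjusted p = 0.595 over 3 tests). Males gave 6 of 11 on each side (p = 1, exact), and libraries numbered 6 and above gave 5 of 11 and 6 of 11 (p = 1, exact).

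Fos itself was tested across the study groups over the 33 ranked libraries, since the group labels did not enter the ranking. In stressed males it averaged 12.6 ± 6.06 CPM, against 19.6 ± 8.36 CPM in control males (SD, n = 9 each), a difference of -0.66 in mean log2 CPM that missed the threshold (exact permutation test, two-sided, p = 0.0617, adjusted p = 0.309 over 5 tests). Stressed females averaged 20.1 ± 18.5 CPM (SD, n = 7) and control females 16.7 ± 9.91 CPM (SD, n = 8), a log2 difference of 0.066 (exact p = 0.885, adjusted p = 0.919). Whether the stress difference itself differed between the sexes was not tested. Within sex, stressed minus control was -0.30 (permutation test, p = 0.345), male minus female was -0.033 (p = 0.919, permutation), and libraries numbered 6 and above minus those up to 5 was -0.096 (p = 0.750, permutation). With the 5 Mbp-rich libraries added, the male difference was -0.70 (exact p = 0.0406, adjusted p = 0.203) and the female difference was -0.079 (exact p = 0.855).

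**Figure D2:**
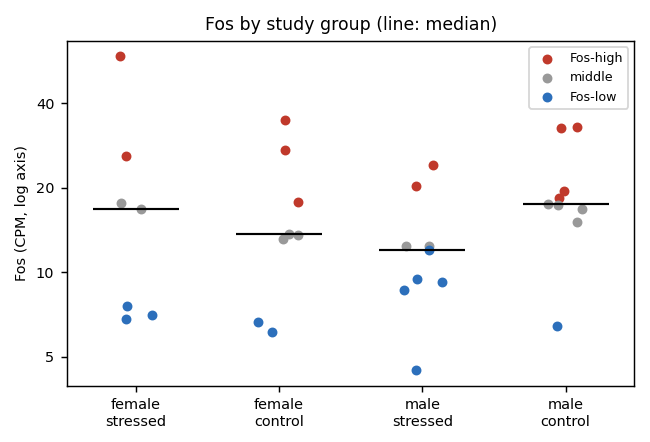
Fos in CPM on a log axis for each ranked library by study group; colours give the side and the line is the group median. Stressed males have 5 of 9 libraries on the Fos-low side and a median of 12.04 CPM, against 17.5 CPM in control males, and the ranges of all 4 groups overlap.

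Across 16309 genes with enough counts, the Fos-high and Fos-low libraries were close in most. The median fitted log2 difference was 0.0023. At least 1.5-fold higher in the Fos-high libraries were 188 genes (1.15%), Fos among them, and 143 genes (0.877%) were at least 1.5-fold lower. At least 2-fold higher were 38 (0.233%), and 10 (0.0613%) were at least 2-fold lower. These counts describe sides that a measured value chose, so no p-value goes with them.

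Genes switched on by activity were prominent among the higher genes. Leaving Fos out, 21 of the 187 genes that were at least 1.5-fold higher belonged to 4 lists of activity genes (rapid transcription factors, rapid effectors, MAP kinase feedback genes and late genes), which is 11.2% of the 187 and 26.6% of the 79 list members tested, beside 1.15% of all genes. None of the 79 was at least 1.5-fold lower. Among the 14557 genes with a mean of at least 1 CPM, 33 were higher in at least 90% of the 121 pairs of a Fos-high and a Fos-low library, and 19 of these 33 were list members. In the opposite direction, 3 genes passed that share (Pgm3, Thnsl1 and Fam214a), none of them a list member.

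Btg2 was the gene apart from Fos whose ranges on the 2 sides did not meet (2 of 16309 genes, 0.0123%). Btg2, an antiproliferative co-regulator first known as a growth factor-induced early gene, ran from 11.3 to 27.3 CPM in the Fos-high libraries (median 17.5) and from 7.59 to 10.4 CPM in the Fos-low libraries (median 9.65). Every Fos-high library thus stood above every Fos-low library. The fitted log2 difference was 1.04 ± 0.13, with 1.11 in libraries numbered up to 5 and 0.82 in those numbered 6 and above. In stressed mice Btg2 ran from 17.5 to 27.3 CPM in the 4 Fos-high libraries and from 7.59 to 10.4 CPM in the 8 Fos-low libraries. Among controls it ran from 11.3 to 24.8 CPM in the 7 Fos-high and from 8.11 to 10.0 CPM in the 3 Fos-low libraries.

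Fosb, Fosl2 and Junb, relatives or partners of Fos in the AP-1 family, were higher on the Fos-high side. Values of other family members, Jun among them, are not given here. Fosb ran from 14.9 to 30.9 CPM there (median 23.7) and from 7.33 to 17.1 CPM on the Fos-low side (median 11.02), and 9 of 11 Fos-high libraries lay above every Fos-low library. The fitted log2 difference was 0.94 ± 0.15, and the number sets gave 0.47 up to 5 and 1.38 from 6. Fosl2, another Fos-like factor, ran from 27.7 to 67.9 CPM against 16.1 to 31.5 CPM (medians 41.8 and 21.2), with a log2 difference of 0.96 ± 0.19 (0.70 and 1.39 in the sets). Here 10 of 11 Fos-low libraries lay below every Fos-high library, with male stressed library 3 as the exception at 31.5 CPM. Junb, a Jun partner, ran from 33.6 to 69.1 CPM against 18.3 to 46.8 CPM (medians 49.5 and 29.2), a difference of 0.90 ± 0.14 (0.71 and 0.93).

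Zinc finger factors of the Egr family varied more among themselves. Egr2 ran from 4.77 to 22.1 CPM on the Fos-high side and from 1.01 to 7.34 CPM on the Fos-low side, with medians of 8.89 and 3.35 CPM and a log2 difference of 1.31 ± 0.25 (1.02 and 1.75 in the sets). The ranges overlapped, and 7 of 11 Fos-high libraries lay above every Fos-low library. Egr4 ran from 15.2 to 41.4 CPM against 11.9 to 25.0 CPM, a difference of 0.67 ± 0.18 (0.37 and 1.12 in the sets) that was 0.56, under 1.5-fold, without female control library 9. Egr1, the family member most used as an activity marker beside Fos, ran from 131 to 401 CPM (median 217) against 63.0 to 194 CPM (median 121), a difference of 0.59 ± 0.18 (0.41 and 0.97 in the sets), and was higher in 84.3% of library pairs. Without female stressed library 6 the Egr1 difference was 0.48, under 1.5-fold. Egr3 stood at 0.29 ± 0.17, with 56.4 to 252 CPM against 46.3 to 168 CPM, and was chosen for the text after its values were seen.

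Nr4a1, an orphan nuclear receptor induced by activity, ran from 53.0 to 119 CPM in the Fos-high libraries (median 83.8) and from 24.3 to 66.9 CPM in the Fos-low libraries (median 35.9). All but 1 of the Fos-high libraries, the exception being female control library 8 at 53.0 CPM, lay above every Fos-low library. The difference was 1.18 ± 0.17, with 0.81 up to 5 and 1.43 from 6. Npas4, which in neurons responds to calcium entry and not to growth factors, ran from 21.6 to 40.7 CPM (median 29.1) against 16.2 to 26.5 CPM (median 18.9). Its difference was 0.61 ± 0.11 and was 0.62 in both number sets, but 0.56, under 1.5-fold, without female stressed library 6. In all, 25 rapid transcription factors other than Fos were tested, all 25 were above 0 (50.8% of all genes were) and 13 were at least 1.5-fold higher (9 without female control library 9), with a median log2 difference of 0.59 beside 0.0023 over all genes.

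Effectors of the rapid response were led by Arc, whose protein assembles at synapses and drives removal of AMPA receptors. Arc ran from 46.6 to 109 CPM in Fos-high libraries (median 81.7) and from 20.1 to 61.9 CPM in Fos-low libraries (median 27.3), a log2 difference of 1.43 ± 0.18 (1.14 and 1.58 in the sets). The highest Fos-low value, in male stressed library 1, overlapped with the lowest 2 Fos-high values, 46.6 CPM in male control library 7 and 47.5 CPM in female control library 8. In stressed mice Arc ran from 77.6 to 89.6 CPM in 4 Fos-high libraries and from 22.3 to 61.9 CPM in 8 Fos-low libraries. Among controls it ran from 46.6 to 109 CPM in 7 and from 20.1 to 27.3 CPM in 3. How many of all genes separate in subsets this small was not counted.

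Gem, a small GTPase that damps calcium channels, ran from 1.91 to 9.43 CPM against 0.783 to 2.21 CPM, a difference of 1.32 ± 0.18 that was 1.07 without female stressed library 6, which held the highest value, and 0.96 and 1.34 in the sets. Apold1, an early response gene of blood vessel endothelium, ran from 3.89 to 18.1 CPM against 2.65 to 4.93 CPM, again highest in that library (1.05 ± 0.18, with 0.75 and 1.1 in the sets, and 0.80 without it). Sik1, a kinase that restrains CREB's co-activators, differed by 0.83 ± 0.12 (0.70 and 0.68 in the sets), the matrix protein gene Ccn1 by 0.94 ± 0.15 (0.79 and 0.96) and the GTPase gene Arl4d by 0.94 ± 0.17. The Arl4d value differed between the sets, 0.48 up to 5 and 1.29 from 6. Of 33 rapid effectors tested, 30 were above 0 (50.8% of all genes were) and 7 were at least 1.5-fold higher (1.15% of all genes), with a median of 0.27.

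**Figure D3:**
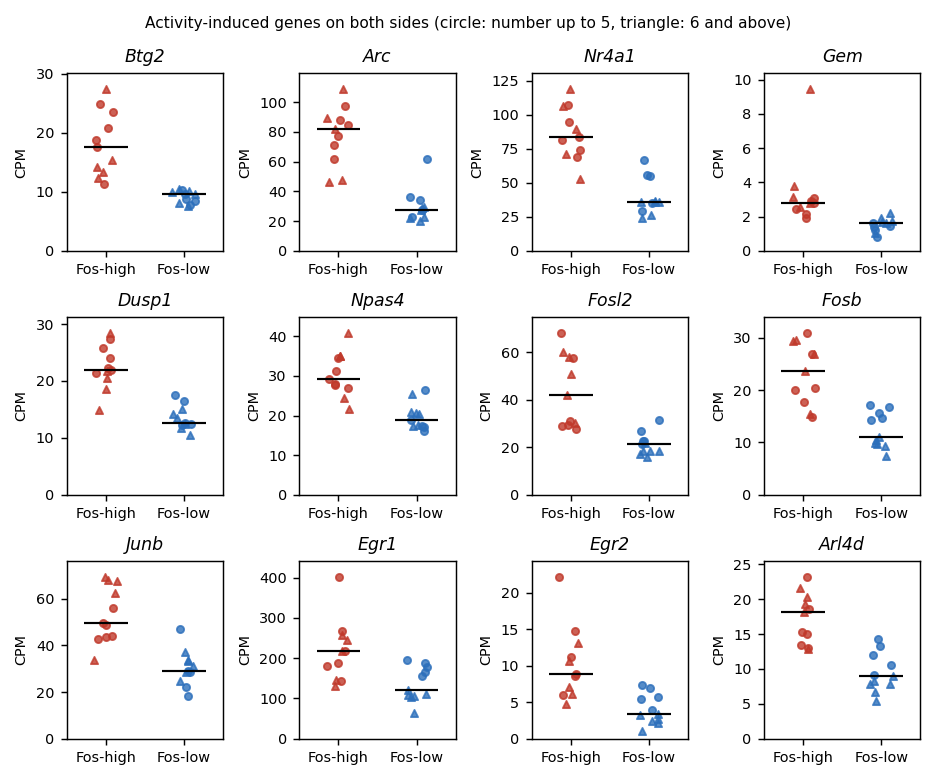
CPM of 12 activity-induced genes in each Fos-high (left, red) and Fos-low (right, blue) library; circles are libraries numbered up to 5, triangles those numbered 6 and above, lines are medians over 11 libraries and points are spread sideways for sight only. Btg2 is the panel in which the sides do not overlap, and in Arc and Nr4a1 most Fos-high points lie above all Fos-low points.

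MAP kinase feedback genes differed little apart from the phosphatase Dusp1. Dusp1 ran from 14.9 to 28.4 CPM on the Fos-high side (median 21.9) and from 10.5 to 17.6 CPM on the Fos-low side (median 12.6), a difference of 0.78 ± 0.10 with 0.74 and 0.68 in the sets. Of the 11 tested members 9 were above 0 with a median of 0.23 (0.15 and 0.35 in the sets), and Dusp1 was the 1 at least 1.5-fold higher. Of all genes, 50.8% were above 0 and 1.15% at least 1.5-fold higher. The Egr co-repressor Nab2 gave 0.36 ± 0.08, the phosphatases Dusp5, Dusp6 and Dusp4 gave 0.41 ± 0.13, 0.28 ± 0.12 and 0.23 ± 0.13, and the inhibitors Spry2 and Spry4 gave 0.24 ± 0.10 and 0.20 ± 0.10. Spred2 was at -0.08 ± 0.09.

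Late genes of the activity response did not share the pattern of the rapid genes. Of 10 tested members, 2 were above 0 (50.8% of all genes were), Gpr3 and Inhba, with a median of -0.085. None was 1.5-fold apart in either direction, as 1.15% (higher) and 0.877% (lower) of all genes were. Bdnf, a neurotrophin, ran from 0.033 to 3.58 CPM in Fos-high libraries (median 1.59) and from 0.783 to 6.29 CPM in Fos-low libraries (median 3.31), a difference of -0.43 ± 0.39. The sets gave -0.01 up to 5 and -1.26 from 6. Nrn1, a neuritin, gave -0.54 ± 0.30, Pcsk1, a propeptide convertase, -0.25 ± 0.17, the granin Scg2 -0.17 ± 0.11 and the peptide precursor Vgf -0.04 ± 0.11. Gpr3, a receptor that raises cyclic AMP, stood at 0.46 ± 0.20.

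Genes that act upstream of Fos lay near 0. None of 26 tested members, which include CREB, its co-activators, serum response factor and its partners, MAP kinases, calcium channels and NMDA receptor subunits, was 1.5-fold apart, and their differences ran from -0.13 to 0.13. Of all genes, 1.15% were at least 1.5-fold higher and 0.877% lower. Serum response factor (Srf) ran from 55.7 to 79.9 CPM against 52.1 to 61.4 CPM (0.13 ± 0.07). Elk1, an MAP kinase target that works with it, ran from 65.4 to 90.8 CPM against 78.4 to 99.2 CPM (-0.12 ± 0.06), and the calcium-dependent kinase gene Camk4 gave -0.13 ± 0.17.

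Over all 33 ranked libraries, which include those that defined the sides, the genes whose CPM followed Fos most closely were Btg2 (Spearman's rho 0.86), Arc (0.859), Nr4a1 (0.837), Dusp1 (0.835) and Ovca2 (0.827). These values are a description, and the part of sequencing depth or of dissection in them was not tested. Ovca2, a serine hydrolase gene that is not an activity list member, ran from 25.2 to 38.9 CPM on the Fos-high side and from 17.1 to 26.1 CPM on the Fos-low side, a smaller but even difference of 0.50 ± 0.08 (0.50 and 0.57 in the sets). Ddit4, an inhibitor of mTOR signalling that glucocorticoids and stress induce, ran from 30.4 to 60.4 CPM against 20.7 to 34.3 CPM (0.68 ± 0.13), with 0.22 up to 5 and 1.04 from 6.

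The core TGACG or CGTCA was looked for in the 250 bases before the start of each gene that had a RefSeq window, on both strands. A gene was counted if any of its windows held the core. Of the 21 rapid genes at least 1.5-fold higher, Fos among them, 17 had a window, as did 31 of the 38 under that fold, and the rest could not be searched. The core was in 16 of the 17 (94.1%) and in 15 of the 31 (48.4%). The 17 genes had more windows each, and by window the shares were closer, 19 of 28 (67.9%) against 19 of 40 (47.5%). Among all tested genes with a window 3596 of 12715 had it (28.3%), and 24.4% of their 16093 windows. Of 6 late genes with a window 4 had it (66.7%), in 4 of 12 windows (33.3%). The full element TGACGTCA, whose letters contain the core on both strands, was in 3 of the 17, in 4 of the 31 and in 2.83% of all tested genes, and the CArG box in 1, 1 and 1.41%. By window, the CArG box was in 4 of 28, in 1 of 40 and in 1.19%. These are matches of letters in the windows shown above and their like, and binding was not measured. Sites more than 250 bases before the start, or with other letters, were not looked for.

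The difference of the activity genes was seen in both number sets, with larger medians in libraries numbered 6 and above. Rapid transcription factors had a median of 0.35 in libraries numbered up to 5 (23 of 25 above 0) and 0.62 in those numbered 6 and above (24 of 25 above 0), and rapid effectors 0.18 (28 of 33) and 0.35 (31 of 33). Over both lists and the 2 others, 13 members were at least 1.5-fold higher up to 5 and 26 from 6. The counts of all such genes also differed, 240 higher and 141 lower up to 5 against 404 and 525 from 6. Summed over its members without Fos, the factor list stood at 711 to 1080 CPM in the 5 Fos-high libraries numbered 6 and above and at 467 to 595 CPM in the 6 Fos-low ones. In libraries numbered up to 5 the sums were 775 to 1328 CPM in 6 Fos-high and 723 to 824 CPM in 5 Fos-low libraries.

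**Figure D4:**
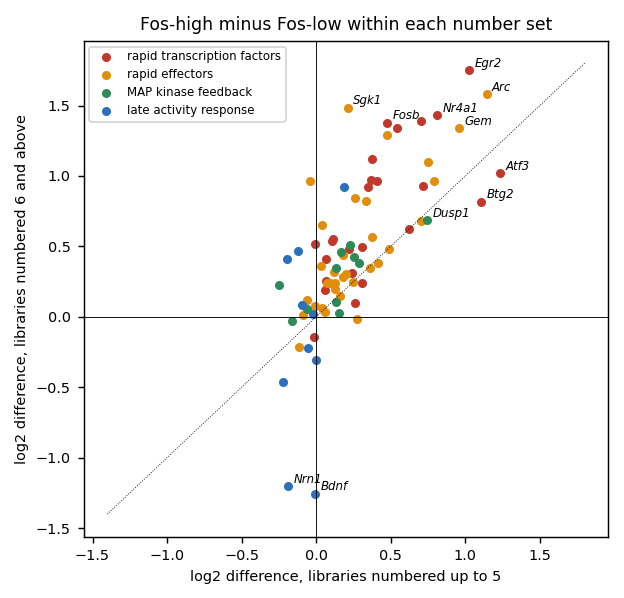
Fitted log2 difference, Fos-high minus Fos-low, of the members of the 4 activity lists in libraries numbered up to 5 (horizontal axis) and in those numbered 6 and above (vertical axis); the dotted line marks equal values. Arc, Nr4a1 and Egr2 are well above 0 on both axes, and Sgk1 and Fosb lie above the line.

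Targets of glucocorticoids, the adrenal hormones of the stress response, overlap with rapid genes, and the list shares Dusp1, Sgk1, Per1, Cdkn1a and Errfi1 with the lists above. Of 19 tested members 14 were above 0 (50.8% of all genes were) and 3 were at least 1.5-fold higher (Sgk1, Dusp1 and Ddit4, beside 1.15% of all genes), with a median of 0.20. The median was -0.04 up to 5 and 0.54 from 6. Sgk1, a kinase induced by glucocorticoids and by activity, ran from 55.4 to 181 CPM against 30.4 to 112 CPM (medians 109 and 50.8). Its difference was 0.77 ± 0.26, which was 0.21 up to 5 and 1.48 from 6. Zbtb16, a transcription factor induced by glucocorticoids, went the other way at -0.55 ± 0.24 (-0.93 and 0.08 in the sets), with medians of 23.8 and 36.9 CPM, and the clock gene Per1, which both signals induce, gave 0.32 ± 0.09. The glucocorticoid receptor gene Nr3c1 ran from 97.4 to 154 CPM against 97.0 to 150 CPM (-0.01 ± 0.08).

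Of all genes, 50.8% were above 0, 1.15% at least 1.5-fold higher and 0.877% at least 1.5-fold lower. Among heat shock genes 7 of 12 were above 0, with a median of 0.05, and the chaperone gene Hspa1b was the 1 at least 1.5-fold higher, at 0.75 ± 0.52 on 1.31 to 18.2 CPM against 0.897 to 4.76 CPM. Without female control library 2 it was 0.50, under 1.5-fold. Clock genes had a median of 0.025 and neuropeptides of 0.013, and in libraries numbered 6 and above these were 0.037 and 0.16. Crh, the peptide that starts the hormonal stress response, ran from 15.99 to 40.3 CPM in Fos-high libraries (median 23.9) and from 4.79 to 27.0 CPM in Fos-low libraries (median 20.8), a difference of 0.15 ± 0.22. Adcyap1, the PACAP gene, and Ucn3, a urocortin, were the 2 of 19 neuropeptides at least 1.5-fold lower, at -0.82 ± 0.37 and -0.78 ± 0.24. Both were near 0 up to 5 (-0.00 and -0.07) and far below it from 6 (-1.53 and -1.14).

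**Figure D5:**
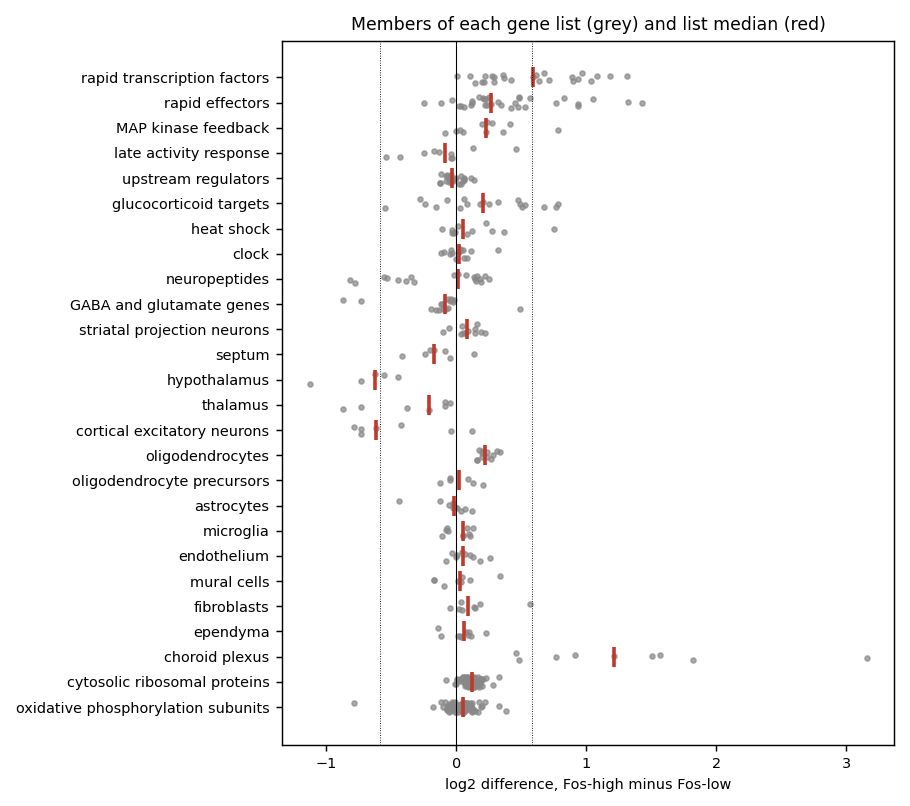
Fitted log2 difference, Fos-high minus Fos-low (horizontal axis), of each tested member (grey) of 26 gene lists and the list's median (red bar); dotted lines mark 1.5-fold. The median of rapid transcription factors is 0.59 and that of rapid effectors 0.27, the medians of late genes and upstream regulators are near 0, and the choroid plexus list is spread by male stressed library 5.

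Markers of other cell types and of neighbouring regions were compared in the same way. The shares to set beside the list counts here and in the list paragraphs that follow are those of all genes. Of these, 50.8% were above 0, 1.15% at least 1.5-fold higher and 0.877% at least 1.5-fold lower. All 12 oligodendrocyte genes were above 0, with a median of 0.22 and none 1.5-fold apart. Their summed level ran from 5320 to 14731 CPM in Fos-high libraries (median 10637) and from 4935 to 13105 CPM in Fos-low libraries (median 6249). The median difference was 0.05 up to 5 and 0.55 from 6. Mbp, which had set the limit for the ranking, ran from 2051 to 6353 CPM against 1861 to 4584 CPM (0.31 ± 0.17). In bulk tissue, fewer cells of a type and less RNA per cell cannot be told apart.

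Hypothalamic genes lay on the other side of 0. All 5 tested members were below 0 with a median of -0.63, and Sim1, Lhx9 and Otp, transcription factors of hypothalamic neurons, were at least 1.5-fold lower. Lhx9 stood at -0.73 and was -0.10 without male control library 9, while Otp stood at -0.63 and was -0.41 without female control library 10, and 0.32 in libraries numbered up to 5. Without male control library 9, 1 of the 5 was at least 1.5-fold lower. Sim1 ran from 0.165 to 2.54 CPM in Fos-high libraries and from 0.913 to 4.51 CPM in Fos-low libraries (-1.12 ± 0.43, with -0.22 and -2.04 in the sets). The list's summed level was 6.51 to 25.7 CPM (median 11.8) against 7.96 to 34.7 CPM (median 12.9), and its median difference was -0.03 up to 5 and -1.25 from 6. The other members, Pmch, Hmx2, Hmx3 and Nr5a1 among them, were too low to test, with 18 to 55 counts over all 22 libraries for these 4. All 7 thalamic genes were also below 0 (median -0.21, with -0.04 up to 5 and -0.59 from 6), with 2 at least 1.5-fold lower, Lhx9 and the glutamate transporter gene Slc17a6, while without male control library 9 the median was -0.10, 5 of 7 were below 0 and 1 was at least 1.5-fold lower. Slc17a6 ran from 5.96 to 35.2 CPM against 9.48 to 60.0 CPM (-0.87 ± 0.29, with -0.36 and -1.60 in the sets). Of 7 cortical genes 4 were at least 1.5-fold lower, Neurod6 and Slc17a7 among them, with a median of -0.62 (-0.15 up to 5 and -0.58 from 6), though the list's summed level was 464 to 723 CPM against 441 to 574 CPM. Neurod6 stood at -0.79, was -0.45 without female stressed library 6 and was 0.043 up to 5, and Slc17a7 stood at -0.73 and was -0.47 without male control library 9. Without either of those libraries 2 of the 7 were at least 1.5-fold lower. The part of these markers in the differences of the activity genes was not tested.

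Choroid plexus genes were higher on the Fos-high side for 9 of 9 tested members, with 7 at least 1.5-fold higher and a median of 1.21. Without male stressed library 5 the median was -0.12, 4 of 9 were above 0, and Ttr stood at -1.35 in place of 1.82. The list's summed level was 3273 CPM in that library, the median was 48.0 CPM over the Fos-high and 48.5 CPM over the Fos-low libraries, and the highest Fos-low sum was 80.8 CPM. Without that library 153 genes were at least 1.5-fold higher, 22 of them activity genes, and the median of rapid transcription factors was 0.63.

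Other lists had medians nearer 0, several of them further from 0 in libraries numbered 6 and above. Striatal projection neuron genes had a median of 0.08 (10 of 12 above 0, with 0.23 from 6), astrocyte genes -0.018, microglial genes 0.052, endothelial genes 0.056, mural genes 0.026, fibroblast genes 0.093, ependymal genes 0.06 and oligodendrocyte precursor genes 0.022, with no member of these lists 1.5-fold apart. Septal genes had a median of -0.17 with 6 of 7 below 0, and -0.05 up to 5 and -0.48 from 6. Genes of GABA and glutamate signalling had a median of -0.088 (-0.01 and -0.26 in the sets) with 15 of 16 below 0, and the 2 at least 1.5-fold lower were Slc17a6 and Slc17a7. Cytosolic ribosomal protein genes had a median of 0.12 (0.05 and 0.34 in the sets) with 74 of 76 above 0, and oxidative phosphorylation genes 0.053 (0.03 and 0.21) with 50 of 73. The haemoglobin genes of the blood list had 0 counts on both sides.

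The genes lowest on the Fos-high side by share of library pairs showed small differences. Pgm3, a mutase of the amino sugar pathway, ran from 11.4 to 17.3 CPM in Fos-high libraries (median 15.4) and from 15.7 to 19.8 CPM in Fos-low libraries (median 17.4), a difference of -0.23 ± 0.08 (-0.22 and -0.20 in the sets). It was higher in the Fos-high library in 7.44% of pairs. Thnsl1 gave -0.30 ± 0.10 and Fam214a -0.18 ± 0.07. Others of the 10 named were the clathrin heavy chain gene Cltc at -0.25 ± 0.11, the exocyst subunit Exoc2 at -0.16 ± 0.06 and the SNAP protein gene Napb at -0.17 ± 0.08. The p53 relative Trp63 had the widest gap of the 10 at -0.67 ± 0.27 (-0.57, under 1.5-fold, without male control library 7), on 0.199 to 1.75 CPM against 0.846 to 2.60 CPM.

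In the 16 libraries on neither side, Fos could be related to other genes by a test, since the contrast of the sides had not used them. The slope of each gene on log2 Fos CPM was fitted with sex, condition, number set and the Mbp-rich state as terms, over a span of 1.13 log2 units of Fos. In the 11 middle libraries Fos ran only from 12.4 to 17.7 CPM, and in the 5 Mbp-rich ones from 13.2 to 27.2 CPM. None of 16308 genes passed in either direction (edgeR's quasi-likelihood test, adjusted p under 0.05, 0 of 16308), while 655 had an unadjusted p under 0.05. With the same terms DESeq2 called 5 genes (Apold1 and Pld5 higher, Hps4, Plin4 and Proser3 lower) and limma voom 1 (Plin4, lower). In simulated counts for these 16 libraries, the edgeR test called 0% of 200 genes given a slope of 0.585 per log2 unit. At a slope of 1 it called 21%, and the sign was right in 95.5% and 99%. The count of 0 thus cannot tell slopes of about this size from none. The simulated counts had the same spread for every gene and no differences by sex, condition, number set or Mbp-rich state. Slopes were given to genes above 1 CPM only, so the shares may be lower in measured counts. In the measured counts, 33 of the 79 activity genes had a slope above 0 (51.5% of all genes did), with a median of -0.043 per log2 unit. The 33 became 32 under DESeq2, 41 under limma voom and 43 in the 11 middle libraries alone. With 1 library left out it ran from 28 (without male stressed library 8) to 42 (without female control library 7). Btg2 had a slope of 0.90 ± 0.28 (p = 0.00508, adjusted p = 0.999, edgeR), Sik1 0.70 ± 0.22 (p = 0.00432, adjusted p = 0.999, edgeR) and Apold1 1.72 ± 0.39 (p = 0.000312, adjusted p = 0.847, edgeR). Arc had -0.10 ± 0.39, Nr4a1 -0.02 ± 0.45, Dusp1 0.10 ± 0.30 and Npas4 -0.48 ± 0.36. Glucocorticoid targets had 3 of 19 slopes above 0, and Plin4, a lipid droplet protein gene of that list, had the smallest p in the table (-4.00 ± 0.69, adjusted p = 0.234, edgeR).

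The 5 Mbp-rich libraries had more Arc than any ranked library but not more Fos. Fos ran from 13.2 to 27.2 CPM in them (median 22.2) and Arc from 112 to 181 CPM (median 146), all above the highest Fos-high library at 109 CPM. Dusp1 ran from 25.8 to 37.3 CPM, Nr4a1 from 79.7 to 133 CPM and Npas4 from 19.6 to 39.7 CPM. These 5 libraries also had 9.06 to 22.6 M counts, 16247 to 17362 genes with a count and a median of 2.14% Rn45s. Their cytosolic ribosomal protein genes summed to 15724 to 19791 CPM, against 8281 to 13528 CPM in Fos-high libraries. The part of these differences in the activity gene levels was not tested. The 11 libraries in the middle of the ranking had medians between those of the sides for the genes named here, 15.1 CPM for Fos, 56.5 CPM for Arc, 66.7 CPM for Nr4a1, 15.9 CPM for Dusp1 and 10.8 CPM for Btg2.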

How the data were processed

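Poly-A RNA of 38 adBNST microdissections was sequenced from TruSeq stranded libraries, per the labels' protocols. The authors deposited 1 table of raw counts per gene symbol (25230 genes), whole numbers with no scaling. STAR, featureCounts, DESeq2 and the mm10 build are named in the submitters' processing notes. The versions, the gene annotation, any filter and whether counting used strand are not given in the sources read here, so genes that overlap or share sequence with copies are less certain.

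CPM was computed on each library's total (9.06 to 84.8 M, where 1 count is worth 0.11 to 0.0118 CPM). The difference between the sides was fitted with edgeR 4.0.16 (quasi-likelihood, TMM, filterByExpr, R 4.3.3) with study group and number set as terms. Within each number set the side was the only term. The filter left 16309 genes and removed 8921. Because Fos chose the sides, these values are given with their standard errors and no p-value, and calls are by size (1.5-fold, 2-fold) or by ranges that do not overlap. Slopes on Fos in the 16 other libraries were tested with edgeR, adjusted by Benjamini-Hochberg over all genes. Fisher's exact tests and permutation tests (exact, or 100000 resamples, scipy 1.17.1) covered the make-up of the sides and Fos by study group. The scripts were tested on simulated data.

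Named genes were the 10 in each direction with the largest share of library pairs (mean of at least 1 CPM), up to 8 members of each activity list and up to 3 of each other list, the 3 smallest p in each direction in the other libraries, and 10 genes of prior interest. Not all are printed. Egr3 and, for the tissue check, Gad1 and Gad2 are outside this rule. The members, lists and rules were chosen with earlier results of these data known. Alternatives were DESeq2 1.42.0, limma 3.58.1 voom, other filters, terms, limits and left-out libraries. Promoter sequences came from RefSeq for GRCm38.p6, where 12715 of the 16309 tested genes had a window. Apart from the windows, 16194 tested symbols matched a RefSeq gene. Some list members are not reported here by name.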

Additional observations from a re-analysis of the deposited data

Results flagged for a closer look

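Within study groups, 3 values lay far from the others by Dixon's criterion at its 95% level, which flags about 1 in 20 groups by chance. Fos in female stressed library 6, on the Fos-high side, stood at 58.8 CPM, the highest of the 7 ranked libraries of that group. The total count of male control library 1, in the middle of the ranking, was 84.8 M, the highest of 9. The ribosomal RNA precursor Rn45s took 2.79% of counts in female stressed library 8, also in the middle of the ranking, the highest of 7.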

How the results depend on the processing

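Without the low-count filter 1537 genes were at least 1.5-fold higher and 1592 lower. The lower count, 143 as reported, was 219 with the replicate number as a block, 227 with 8 libraries on each side and 266 with all 38 libraries ranked, and libraries numbered 6 and above alone gave 404 higher and 525 lower. Activity genes at least 1.5-fold higher numbered 13, not 21, in libraries numbered up to 5. With 1 library of the 22 left out, 153 to 226 genes were higher (the lowest without male stressed library 5), 133 to 201 lower, and 17 to 22 activity genes higher. In the 16 other libraries DESeq2 called 2 genes higher with Fos (Apold1, Pld5) and 3 lower (Hps4, Plin4, Proser3), and voom 1 lower (Plin4). Leaving out 1 of the 16 gave 0 higher and 0 to 1 lower, Zbtb16 without female control library 1 and Plin4 without male control library 3 or female stressed library 7. Fos in stressed minus control females was -0.079 with all 38 libraries, and in numbers 6 and above minus up to 5 it was 0.330 CPM without logs. Among named genes, Ttr was -0.25 under voom, -1.56 from 6 and, with 1 library left out, -1.35 (without male stressed library 5) to 4.55 (without male control library 9), Folr1 -0.12 from 6, and Otp 0.32 and Neurod6 0.043 up to 5. The cause of these was not tested, other than the library left out. Of 34 named genes at least 1.5-fold apart, 12 came under that fold without some single library, and of all 115 named genes 10 changed sign, 1 of them (Ttr) from a 1.5-fold difference. Folr1 was 0.23 in place of 1.57 and Igf2 -0.02 in place of 0.57 without male stressed library 5. Changed signs of genes at least 1.5-fold apart are given by name above. Of the other recomputed differences of named genes, 2528 with a library left out and 1351 under other settings moved by less than the SD between libraries of a side. By more moved 1 and 24. Changed signs of genes under 1.5-fold apart are within these counts and are not all named.

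The labels do not say whether the replicate numbers pair the libraries. Same-numbered libraries deviated together in 41 of 55 pairs (correlation above 0.1), and in 14 of 55 once the number set was removed. Of 38 libraries 7 correlated best with their own number, and 6 once the set was removed. How many would do so without pairing was not worked out, so pairing stays undecided. With the block, 204 genes were higher and 20 activity genes were among them. Depth limits genes near 1 CPM, and each side has 11 libraries.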
